A study of Rattus norvegicus with 12 samples.

Results

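The livers of rats that received N-nitrosodiethylamine (NDEA) and drank the common Fuyun6 green tea (FYT) were compared with the livers of the Control group, to see what still differed from a liver that had not been exposed to the carcinogen. All animals were male Wistar rats from groups of 12 at the start, and livers were taken after 20 weeks. Their age is not given in the labels. The NDEA+FYT group had NDEA at 25 mg/kg by intraperitoneal injection, with 2 injections in each of weeks 2 to 9, and drank an infusion of 3 g Fuyun6 tea per 100 ml for 20 weeks. Control rats were injected with saline on the same schedule and drank water, so they were free of NDEA but not free of injections. RNA of 3 liver samples of each group was sequenced. The NDEA group (NDEA, water) and the NDEA+CFT-1 group (NDEA and an EGCG-rich tea), also with 3 libraries each, are given only beside results of this comparison. NDEA+FYT differs from Control in both the carcinogen and the tea, so this comparison alone cannot tell their effects apart. The tests of NDEA against Control and of NDEA+FYT against NDEA bear on each in turn, and no group drank FYT without NDEA. The sources do not say whether a liver piece held nodule or surrounding tissue.

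The comparison covered every gene whose mean FPKM (fragments per kilobase of transcript, relative to all mapped fragments) over the 6 libraries was at least 1. These were 11680 of the 34194 deposited gene IDs, or 34.2%. Another 11547 IDs had some signal but a lower mean, and 10967 were listed at 0 in all 6 libraries. The mean FPKM was 1.00 for the gene just inside this limit and 0.9997 for the gene just outside, and 278 genes lay between 1 and 1.1. Of the genes compared, 10968 carried an Ensembl rat gene ID and 712 an ID of the authors' own that is not from Ensembl. The sources used here do not pair these IDs with gene symbols, so no gene is named by its function, 2 IDs in each direction are printed, and the liver identity of the samples could not be checked against marker genes.

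NDEA is a nitrosamine that liver cytochrome P450 enzymes convert to a reactive form which alkylates DNA, and repeated dosing of rats leads over months to foci of altered hepatocytes, nodules and liver tumors. Altered foci of this kind typically express enzymes and fetal proteins at levels that normal hepatocytes do not reach. Green tea supplies catechins, polyphenols of which EGCG is the best studied. A piece of such a liver mixes hepatocytes, altered cells, immune cells and scar-forming cells, and in bulk RNA fewer cells of a type and less RNA per cell cannot be told apart.

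More gene IDs reached an FPKM of 1 in each NDEA+FYT library than in any Control library, while the number of IDs above 0 overlapped. An FPKM of at least 1 was found for 11988, 12127 and 11819 IDs in NDEA+FYT replicates 1, 2 and 3, and for 11415, 11756 and 10548 IDs in the Control replicates. All 3 NDEA+FYT libraries lay above all 3 Control libraries, with means of 11978 ± 154 and 11240 ± 623 (SD, n = 3 each). The 10 most abundant IDs took 20.2%, 19.5% and 20.0% of the summed FPKM in NDEA+FYT and 20.4%, 21.4% and 24.1% in Control. The groups did not overlap in this share either, with means of 19.9% ± 0.336 in NDEA+FYT and 22.0% ± 1.89 in Control (SD, n = 3 each). The median FPKM over the genes compared was 7.54 ± 0.13 in NDEA+FYT and 6.35 ± 0.78 in Control (SD, n = 3 each). Control replicate 3 accounted for much of these gaps. Without it the mean gap fell from 738 to 393 IDs, the Control mean of the top-10 share from 22.0% to 20.9%, and the gap in median FPKM from 1.19 to 0.744, still without overlap. Without Control replicate 2 the Control means were 10982 IDs, 22.2% and 6.14 FPKM. For each of these 3 measures with all libraries the exact permutation test over 20 assignments gave a two-sided p of 0.1, the smallest that 3 against 3 libraries allow, and 0.175 after adjustment over 7 library measures. The number of IDs with an FPKM above 0 overlapped, at 19191 to 19867 in NDEA+FYT and 17989 to 19990 in Control (exact permutation test, two-sided p = 0.7). Depth in reads is not given, but the size of 1 read in FPKM at low genes gave a depth relative to the shallowest library of the series of 1.14 to 1.6 in NDEA+FYT and 1.22 to 1.6 in Control. The depths overlapped between the groups (exact permutation test, two-sided p = 0.8), and the part of depth in single genes was not tested.

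**Figure D1:**
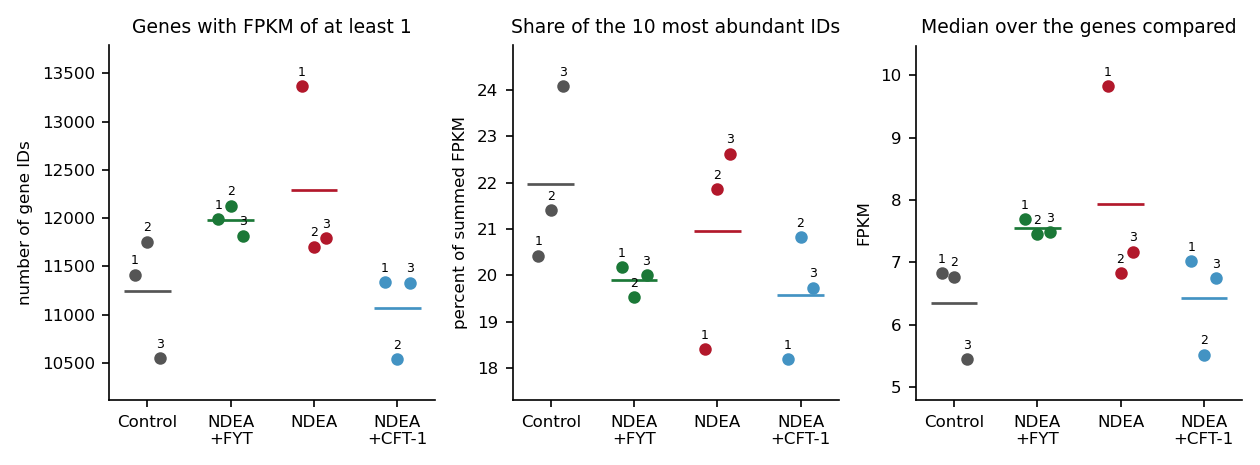
Number of gene IDs with an FPKM of at least 1, share of the summed FPKM taken by the 10 most abundant IDs (percent), and median FPKM over the 11680 genes compared, for each of the 12 libraries (point, labelled by replicate) with the group mean (line). The 3 NDEA+FYT libraries lie close together, at 11819 to 12127 IDs, and Control replicate 3 lies lowest of the Control libraries in the left panel, at 10548 IDs.

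The NDEA+FYT libraries were also more alike. The median SD of log2(FPKM + 1) over genes was 0.15 in NDEA+FYT and 0.25 in Control, and the SD was larger in Control for 72.2% of the genes. Pearson's r across genes, which are not independent and share the same libraries, was 0.977 to 0.983 between NDEA+FYT libraries, 0.957 to 0.974 between Control libraries and 0.961 to 0.980 between the groups. Control libraries often correlated more closely with NDEA+FYT than with each other. Control replicate 2 did so with all 3 NDEA+FYT libraries (0.977 to 0.980, against 0.974 and 0.957 within Control), Control replicate 1 with NDEA+FYT replicate 1 (0.978, against 0.974 and 0.969), and Control replicate 3 was closer to all 3 NDEA+FYT libraries (0.961 to 0.966) than to Control replicate 2 (0.957), but closer still to Control replicate 1 (0.969). With 1 library left out, the median SD over the remaining 2 was 0.26, 0.22 and 0.15 in Control without replicates 1, 2 and 3, and 0.12, 0.13 and 0.11 in NDEA+FYT. Control stayed above NDEA+FYT in each case, by the least without Control replicate 3.

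The library labelled Control replicate 2 went against its group at the genes that differed most. The genes were taken that separated the other 5 libraries, all 3 NDEA+FYT libraries lying at least 2-fold (in FPKM + 1) above or below both Control replicates 1 and 3. There were 73 such genes, or 0.625% of those tested, 69 of them higher and 4 lower in NDEA+FYT. Control replicate 2 was not used for the separation, but it entered the 6-library mean of the level filter. With that filter on the other 5 libraries alone, the same 73 genes were found among 11649 tested. Control replicate 2 lay nearer to the mean of NDEA+FYT than to that of the other Control libraries on the log2(FPKM + 1) scale for 68 of the 73 genes. Over the 69 higher genes the median FPKM was 0.84 in Control replicate 1, 0.61 in Control replicate 3 and 4.99 in Control replicate 2, beside 5.42, 10.5 and 5.74 in the NDEA+FYT libraries. On a scale from 0 at the mean of Control replicates 1 and 3 to 1 at the mean of NDEA+FYT, the median position of Control replicate 2 was 0.80. When each of the other 5 libraries was left out in the same way, only 5 to 13 genes separated the rest and the left-out library lay nearer to NDEA+FYT for 50.0% to 60.0% of them, or 46.2% to 60.0% with the filter on the remaining libraries alone. The NDEA and NDEA+CFT-1 libraries, which took no part in the choice of the 73 genes, had median positions of 1.56, 0.47 and 0.94 and of 0.76, 0.76 and 0.99. NDEA replicate 2 was thus the lowest of the 6, and lay nearer to Control for 37 of the 73 genes. Whether the labels of Control replicate 2 and NDEA replicate 2 are right was not tested and cannot be settled from these values, and each Control mean and NDEA comparison here holds only as far as they are. Both libraries kept their labelled groups, and the main counts and differences are also given without Control replicate 2.

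**Figure D2:**
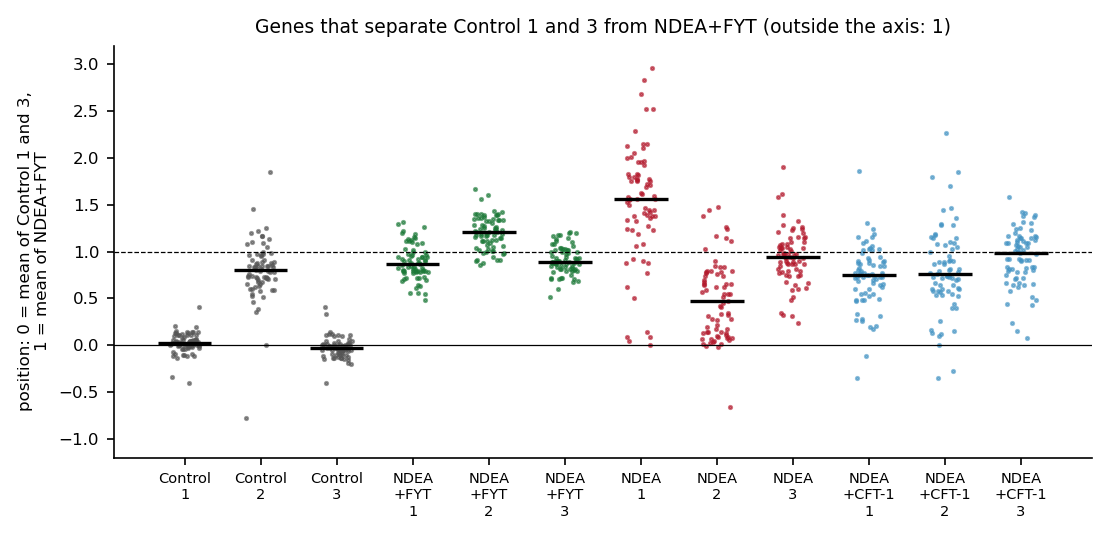
Position of each library for the 73 genes that separate Control replicates 1 and 3 from the NDEA+FYT libraries, on a scale where 0 is the mean of Control replicates 1 and 3 and 1 is the mean of NDEA+FYT in log2(FPKM + 1). Each point is a gene, black lines are medians, and 1 point lies outside the axis. The Control replicates 1 and 3 and the NDEA+FYT libraries fixed the scale and are shown for reference, while Control replicate 2 has a median of 0.80 and NDEA replicate 2 a median of 0.47.

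With all 6 libraries and the FPKM values as deposited, no gene could be called between NDEA+FYT and Control. After Benjamini-Hochberg adjustment of limma's p-values, 0 of 11680 genes had an adjusted p-value under 0.05 (0%), the lowest being 0.496. Before adjustment, 1164 genes had a p-value under 0.05, or 9.97% of those tested, of which 1078 (9.23%) were higher and 86 (0.736%) lower in NDEA+FYT. This count was 444 with all 12 libraries in the fit, 399 higher and 45 lower. With library weights it was 2392, with 1997 higher and 395 lower. The sizes were modest. Among the 1078 higher genes the median log2 difference was 0.51, and 101 differed by at least 1 and 8 by at least 2 on the log2 scale. Among the 86 lower genes the median size was 0.52, 7 reached 1 and 0 reached 2. In group means of FPKM + 1, 146 genes (1.25%) differed at least 2-fold, 122 of them higher (1.04%) and 24 lower (0.205%). The libraries of the groups did not overlap for 2353 genes (20.1%). NDEA+FYT was the higher group for 2172 (18.6%) of them and the lower group for 181 (1.55%). For only 2 genes did all 3 NDEA+FYT libraries exceed every Control library by at least 2-fold in FPKM + 1, and for 0 genes did they lie that far below. Adding 1 to the FPKM makes the differences of weakly expressed genes look smaller than they are. With a pseudocount of 0.1 in place of 1, 325 genes were at least 2-fold apart, 278 higher and 47 lower.

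The excess of higher over lower genes depended on how the libraries were scaled. The median log2 difference over all genes tested was 0.18, and 80.2% of the genes had a higher mean in NDEA+FYT. The median was 0.10 without Control replicate 3, and 0.08 over all IDs with signal when no filter on low values was set. After median-of-ratios scaling, which divides each library by its typical ratio to the 6-library average and thereby centres the libraries on each other, the median was 0.01. The scaling factor was 0.815 for Control replicate 3, 1.002 and 0.998 for the other Control libraries and 1.066 to 1.104 for NDEA+FYT. After it, 814 genes (6.97%) had an unadjusted p-value under 0.05, with 386 higher (3.3%) and 428 lower (3.66%), and 0 genes were called at the adjusted threshold (smallest adjusted p-value 0.682, limma). The groups then did not overlap for 1551 genes (13.3%), 691 higher (5.92%) and 860 lower (7.36%). At least 2-fold apart were 127 genes (1.09%), 84 higher (0.719%) and 43 lower (0.368%). Only 310 genes were higher (2.65%) and 73 lower (0.625%) on both scales, at an unadjusted p-value under 0.05 and without overlap on each. The higher ones of these had a median FPKM of 2.30 in Control and 4.61 in NDEA+FYT, and the lower ones 41.7 and 26.1. The median over all genes compared, averaged over the libraries, was 6.35 in Control and 7.54 in NDEA+FYT. The genes higher with NDEA+FYT were thus typically less abundant, and those lower with it more abundant, than the typical gene compared.

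**Figure D3:**
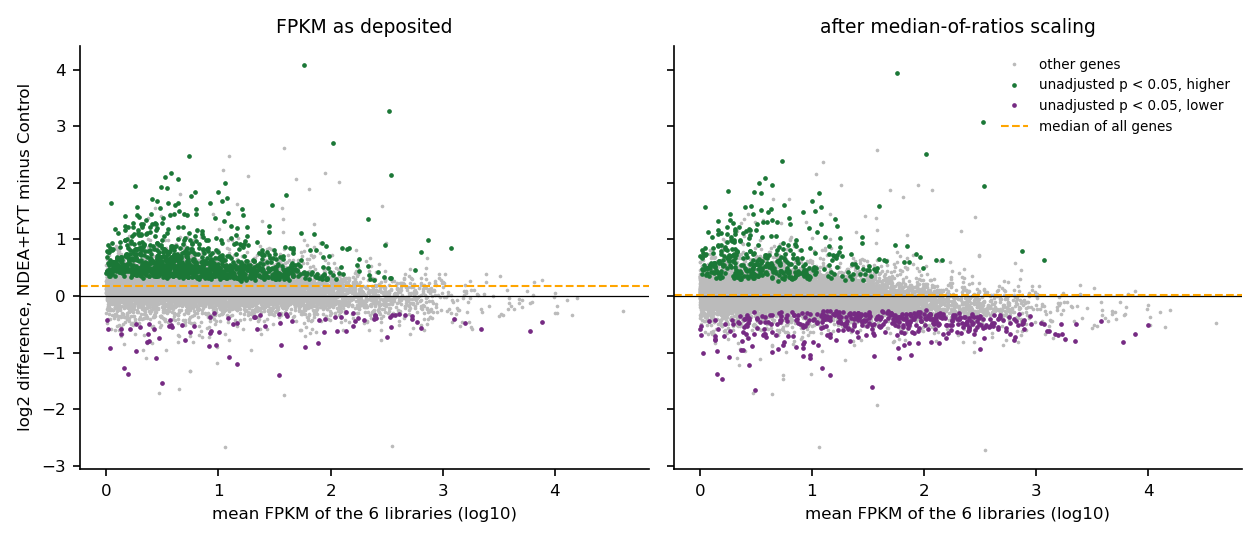
Log2 difference of each of the 11680 genes, NDEA+FYT minus Control, in log2(FPKM + 1), against its mean FPKM over the 6 libraries (log10 axis values), as deposited and after median-of-ratios scaling. Colored points have an unadjusted p-value under 0.05, with 1078 higher and 86 lower genes at left and 386 and 428 at right. The dashed line is the median of all genes, 0.18 at left and 0.01 at right.

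Control replicate 2 was singled out for lying near NDEA+FYT, so leaving it out widens the differences at those genes by construction. The values without it are therefore a description and no independent support for a difference. At an unadjusted p-value under 0.05, 1903 of the 11680 genes differed, 1750 higher (15%) and 153 lower (1.31%). At least 2-fold apart in group means were 328 of the 11680 genes, 292 higher and 36 lower. The groups did not overlap for 4597 genes, 4027 higher (34.5% of those tested) and 570 lower (4.88%). With 1 Control library fewer to separate, a lack of overlap is met more easily, so this count cannot be set directly against that with all libraries. With the median-of-ratios scaling as well, 851 genes were higher and 779 lower at the unadjusted threshold, and 187 were at least 2-fold higher and 76 lower. On both scales, at an unadjusted p-value under 0.05 and without overlap, 848 genes were higher (7.26%) and 152 lower (1.3%). These held 261 of the 310 higher and 50 of the 73 lower genes found with all libraries. One Ensembl ID was called, higher in NDEA+FYT, with an adjusted p-value of 0.0103 in limma's test as deposited and 0.016 for the same ID after scaling. Its FPKM was 61.7, 77.0 and 58.1 in the NDEA+FYT libraries, 5.91 and 5.30 in Control replicates 1 and 3, and 89.0 in Control replicate 2. The log2 difference was 3.32 without Control replicate 2 and 2.07 with it, when the adjusted p-value was 0.501. In the other groups its FPKM was 7.16, 85.2 and 61.9 in NDEA and 50.4, 41.8 and 74.7 in NDEA+CFT-1, so that NDEA replicate 1 was near Control replicates 1 and 3 and the other libraries of these groups lay between 41.8 and 85.2.

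Leaving out an NDEA+FYT library lowered the count at the unadjusted threshold. It was 566 without replicate 1, 619 without replicate 2 and 766 without replicate 3. Without Control replicate 3 it was 1052, with 820 higher and 232 lower, and without Control replicate 1 it was 1028. Higher genes outnumbered lower ones in each of these fits as deposited.

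The direction of the differences followed the abundance of the gene. As deposited, the median log2 difference was 0.20 for the 3107 genes at 1 to 3 FPKM on average, 0.22 for the 3838 genes of 3 to 10, 0.17 for the 2529 genes of 10 to 30, 0.11 for the 1364 genes of 30 to 100, 0.01 for the 760 genes of 100 to 1000 and −0.09 for the 82 genes of 1000 or more. At an unadjusted p-value under 0.05, 10.3% of the genes of 1 to 3 FPKM were higher and 0.579% lower in NDEA+FYT, while among the genes of 1000 or more 1.22% were higher and 6.1% lower. After scaling the medians ran from 0.08 for the lowest class to −0.30 for the highest. Without Control replicate 3 they ran from 0.12 to −0.08 as deposited, and without Control replicate 2 from 0.27 to −0.06. Control replicate 3 stood lowest of the 6 libraries in every class except that of 1000 or more FPKM, where its median position relative to the Control mean was −0.02 and those of the NDEA+FYT libraries were −0.13, −0.03 and −0.09. In the NDEA group, compared with the same Control libraries, the medians were 0.28 for the lowest and −0.14 for the highest class, or 0.14 and −0.07 without NDEA replicate 1. In NDEA+CFT-1 the medians did not follow this order, at −0.02 in the lowest class, 0.09 at 100 to 1000 FPKM and 0.00 in the highest. Without NDEA+CFT-1 replicate 2 they were 0.06, 0.05 and −0.03, with 0.11 at 10 to 30 FPKM.

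**Figure D4:**
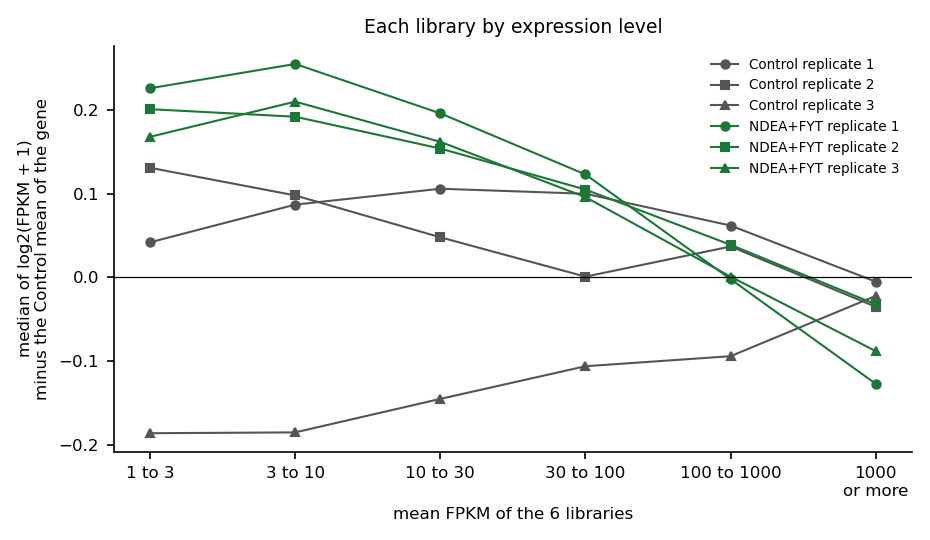
Median over the genes of each abundance class (mean FPKM of the 6 libraries) of log2(FPKM + 1) minus the Control mean of the gene, for each library. The NDEA+FYT lines lie above the Control lines in the 2 lowest classes, at 0.17 to 0.26 against −0.19 to 0.13, and the groups overlap from 30 FPKM upwards.

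Among the 100 most abundant genes, the median log2 difference was −0.06 as deposited and −0.27 after scaling. The groups did not overlap for 12 lower and 3 higher of these genes as deposited (12.0% and 3.0%, beside 1.55% and 18.6% of all genes tested), and for 20 lower and 1 higher after scaling (20.0% and 1.0%, beside 7.36% and 5.92%). Without Control replicate 2 these were 20 lower and 12 higher, beside 4.88% and 34.5% of all genes tested, and 36 lower and 1 higher after scaling, beside 17.4% and 17.0%. The median differences were then −0.06 and −0.31. Together the 100 most abundant IDs of each library took 47.5% to 48.8% of its summed FPKM in NDEA+FYT and 49.2% to 55.3% in Control. The groups again did not overlap (exact permutation test, two-sided p = 0.1, adjusted p = 0.175 over 7 library measures). The difference of the means, NDEA+FYT minus Control, was −3.52 percentage points. Without Control replicate 3 that difference was −1.75, still without overlap. The 712 non-Ensembl IDs had a median log2 difference of 0.12, and 4.63% of them were higher and 1.54% lower at the unadjusted threshold, beside 9.53% and 0.684% of the Ensembl IDs. After scaling these shares were 1.97% and 3.79% for non-Ensembl IDs and 3.39% and 3.66% for Ensembl IDs. Without Control replicate 2, as deposited, they were 8.29% and 3.09% for non-Ensembl IDs and 15.4% and 1.19% for Ensembl IDs. These 2 kinds of ID were not tested against each other.

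At the 3 genes with the largest differences in group means, Control replicate 2 lay among or near the NDEA+FYT libraries. The largest log2 difference, 4.09 (unadjusted p = 0.0211 in limma's test), belonged to an Ensembl ID with FPKM values of 0.468, 59.4 and 0.431 in Control, 50.7, 159 and 74.4 in NDEA+FYT, 741, 1.98 and 48.5 in NDEA and 58.8, 59.2 and 136 in NDEA+CFT-1. Control replicate 2 was within the range of the tea groups here and NDEA replicate 2 was near the other Control libraries. The next largest, 3.28, had 20.6, 321 and 14.0 FPKM in Control, 175, 661 and 818 in NDEA+FYT and 3433, 43.4 and 1061 in NDEA. The third, 2.71, had 6.75, 135 and 10.4 FPKM in Control, 106, 249 and 124 in NDEA+FYT and 293, 81.7 and 171 in NDEA. NDEA replicate 2 was the lowest NDEA library for each of these genes, but for the third it lay well above Control replicates 1 and 3. All 3 overlapped between the groups through Control replicate 2 alone, and all 3 were among the genes that separated the other 5 libraries. In the opposite direction the largest differences, −2.67 and −2.65, had unadjusted p-values of 0.0866 and 0.397 in limma's test. Their Control libraries differed widely, at 66.3, 2.79 and 0 FPKM for the first and 135, 1726 and 0 FPKM for the second.

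The IDs to be printed were the 2 with the largest log2 difference in each direction among the 310 and 73 genes that differed on both scales, and all 4 also belonged to the 73 genes that separated the other 5 libraries. Their lack of overlap and unadjusted p-values under 0.05 follow from this choice and are no independent support for a difference. Genes that separated the other 5 libraries lie at least 2-fold from Control replicates 1 and 3, so Control replicate 2 tends to be the nearest Control library. ENSRNOG00000001628 had 5.25, 17.4 and 6.79 FPKM in the NDEA+FYT libraries and 0.298, 2.97 and 0 in Control. All NDEA+FYT values lay above all Control values, and Control replicate 2 was the nearest. The means were 9.83 ± 6.64 and 1.09 ± 1.64 (SD, n = 3 each), and the log2 difference was 2.48 ± 0.59 (SE, unadjusted p = 0.00382, adjusted p = 0.496 in limma's test). It was 3.08 without Control replicate 2 and 4.12 with a pseudocount of 0.1 in place of 1. ENSRNOG00000022163 had 4.91, 9.50 and 5.26 FPKM in NDEA+FYT, was listed at 0 in Control replicates 1 and 3, and had 3.2 FPKM in Control replicate 2. Its log2 difference was 2.18 ± 0.57 (SE, unadjusted p = 0.00601, adjusted p = 0.496 in limma's test), 2.87 without Control replicate 2, and 4.31 with a pseudocount of 0.1.

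On the lower side, Novel00808 had 0.920, 0.531 and 0.584 FPKM in NDEA+FYT and 12.7, 1.04 and 3.06 in Control. The groups were separated only narrowly, between 0.920 and 1.04 FPKM. The log2 difference was −1.54 ± 0.62 (SE, unadjusted p = 0.0412, adjusted p = 0.496 in limma's test), −0.78 without Control replicate 1, which held its highest value, and −2.16 without Control replicate 2. ENSRNOG00000008050 had 22.5, 16.5 and 13.3 FPKM in NDEA+FYT and 68.5, 23.0 and 63.8 in Control. Here too Control replicate 2 lay next to the NDEA+FYT libraries. The log2 difference was −1.40 ± 0.41 (SE, unadjusted p = 0.0114, adjusted p = 0.496 in limma's test), and −1.90 without Control replicate 2.

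For each of these 4 IDs the NDEA+FYT libraries overlapped with both other NDEA-injected groups. ENSRNOG00000001628 had 20.5, 0.329 and 6.82 FPKM in NDEA and 4.36, 6.33 and 12.6 in NDEA+CFT-1, and ENSRNOG00000022163 had 13.3, 0.154 and 10.8 in NDEA and 1.6, 3.0 and 6.69 in NDEA+CFT-1. In both IDs NDEA replicate 2 was at the level of Control replicates 1 and 3. Novel00808 ranged from 0.537 to 3.47 FPKM in NDEA and from 0.0854 to 3.67 in NDEA+CFT-1, and ENSRNOG00000008050 from 18.6 to 36.0 and from 2.44 to 22.0. Between NDEA+FYT and NDEA the log2 differences were 0.67 ± 0.98, 0.33 ± 0.92, −0.60 ± 0.38 and −0.44 ± 0.31 (SE) in this order for ENSRNOG00000001628, ENSRNOG00000022163, Novel00808 and ENSRNOG00000008050, with unadjusted p-values of 0.160 or more in limma's test. Between NDEA+FYT and NDEA+CFT-1 the unadjusted p-values of the 4 IDs were 0.110 or more in limma's test. These groups were thus not told apart at the 4 IDs, and the SE of up to 0.98 leaves the size of any difference from NDEA wide.

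**Figure D5:**
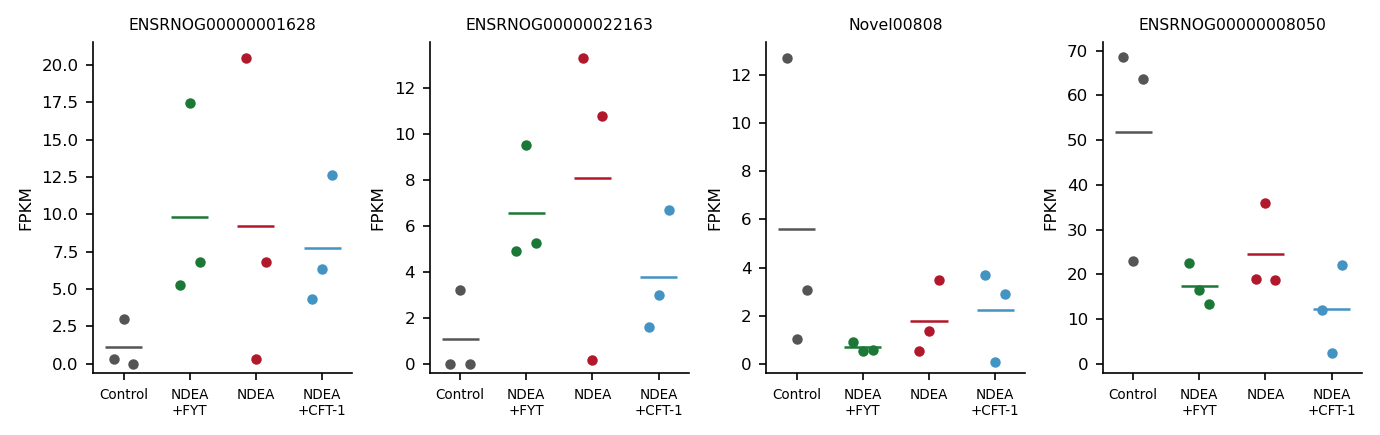
FPKM of ENSRNOG00000001628, ENSRNOG00000022163, Novel00808 and ENSRNOG00000008050 in each of the 12 libraries (points, replicates 1 to 3 from left to right) with group means (lines). The IDs were chosen for no overlap between Control and NDEA+FYT, so its absence in each panel follows from the choice. The Control library nearest to NDEA+FYT is replicate 2 in each, which the place of these IDs among the genes separating the other 5 libraries favors.

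Among the genes compared, 2 were listed at 0 in all 3 Control libraries and above 0 in all 3 NDEA+FYT libraries, with FPKM values of 0.911 to 7.24, and 0 genes showed the opposite. The filter on the mean limits these counts, since a gene at 0 in a group can pass only through the other group. Over all 23227 IDs with signal in the 6 libraries, 67 were listed at 0 in all Control and above 0 in all NDEA+FYT libraries, and 30 the other way. Of these IDs, 4 and 2 had a mean FPKM of at least 1 in the group where they were above 0. An exact 0 at such levels depends on depth, which is known only relative to other libraries. Of the 11680 genes, 11591 had a value above 0 in each of the 6 libraries.

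The other comparisons with Control, fitted in the same way on the same 11680 genes and sharing its 3 libraries, are given side by side. At an unadjusted p-value under 0.05 as deposited, 353 genes (3.02%) were higher and 73 (0.625%) lower in NDEA than in Control, and 259 (2.22%) were higher and 180 (1.54%) lower in NDEA+CFT-1. After scaling NDEA had 261 higher (2.23%) and 214 lower (1.83%) genes, and NDEA+CFT-1 had 227 higher (1.94%) and 274 lower (2.35%). With NDEA+FYT the numbers were 1078 (9.23%) and 86 (0.736%), and 386 (3.3%) and 428 (3.66%) after scaling. Such counts depend on the spread within a group as well as on the size of the differences, and the part of spread was not tested. IDs with an FPKM of at least 1 ranged from 11704 to 13365 in NDEA and from 11819 to 12127 in NDEA+FYT. The genes were also filtered on Control and NDEA+FYT alone, where the same filter would keep 12039 with NDEA and 11263 with NDEA+CFT-1. At least 2-fold apart in group means as deposited were 497 genes (4.26%) for NDEA, 171 (1.46%) for NDEA+CFT-1 and 146 for NDEA+FYT. Without Control replicate 2 these were 848, 259 and 328, so the order of the tea groups as deposited depends on that library. After scaling they were 327, 173 and 127 with all libraries, and 575, 261 and 263 without Control replicate 2. At the adjusted threshold 0 genes were called in each with all libraries (limma, Benjamini-Hochberg adjustment). Without Control replicate 2, 448 genes were higher and 96 lower in NDEA with 0 called, and 455 were higher and 146 lower in NDEA+CFT-1 with 6 of 11680 called, or 5 after scaling. At the 73 genes Control replicate 2, at a median position of 0.80, also lay near the NDEA+CFT-1 libraries, at 0.76, 0.76 and 0.99. Leaving it out thus widens that comparison too, and these calls are no independent support for a difference. Without NDEA replicate 2, 744 were higher and 152 lower in NDEA, and without both libraries 799 and 138, with 0 called each time. The direct test of NDEA+FYT against NDEA also called 0 genes, with 190 genes (1.63%) at the unadjusted threshold, or 493 and 0 called without NDEA replicate 2. As deposited, 149 of the 190 were higher in NDEA+FYT and 41 lower, and after scaling 136 genes were higher and 75 lower. The test against NDEA+CFT-1 called 0 genes, with 1395 (11.9%) at the unadjusted threshold as deposited, 1342 higher in NDEA+FYT and 53 lower. After scaling 733 genes were higher and 328 lower, so this excess too depended on the scaling.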

How the data were processed

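Liver RNA was sequenced by the authors as paired-end reads, trimmed with Trimmomatic, mapped with HISAT2 to Rnor_6.0, freed of PCR duplicates and counted per gene over uniquely mapped reads (HTSeq 0.6.1 in the submitters' processing notes), and the deposited values are FPKM, with 1 column per library. The annotation release and the library strandedness are not given in the sources used here. Read counts were not used here, so depth is known only relative to other libraries, from the step of 1 read at genes under 0.2 FPKM, and intervals for counting error are not given.

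Groups came from the sample titles. From the FPKM, log2(FPKM + 1) was tested for NDEA+FYT against Control with limma 3.58.1 in R 4.3.3 (lmFit, eBayes with trend) on these 6 libraries, with Benjamini-Hochberg adjustment over 11680 genes and a threshold of 0.05, as deposited and after median-of-ratios scaling. The study compared groups pairwise with DEGSeq, which needs counts and was not run. A fold change is on this log2(FPKM + 1) scale. The fit was tested on simulated data. Library measures were compared by an exact two-sided permutation test. The 3 liver samples per group, described as biological replicates, were taken to come from separate rats, which the paper does not state outright.

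The genes compared and the lists were chosen with earlier results of these data known. The rule for named genes asked for symbols, and 0 IDs could be paired with one from the sources used here. The first part of the rule was therefore applied to IDs (an unadjusted p-value under 0.05 and no overlap on both scales, largest log2 difference) and limited to 2 IDs in each direction. The lists of pathway genes and cell type markers were not analysed here for the same reason, and neither promoter nor protein sequences could be matched. Leaving out 1 Control or NDEA+FYT replicate at a time, as deposited, was planned for the median log2 difference and the printed IDs. It was also planned for the counts of genes called, at the unadjusted threshold, at least 2-fold apart and without overlap. The other checks with left-out libraries, with the level filter on 6 or 5 libraries, were added after seeing the data. They include the library measures and the other comparisons without a Control or NDEA library. The settings with Control replicate 2 or 3 left out after scaling, and the library weights, were also added after seeing the data. Plots were drawn with matplotlib 3.10.9.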

Additional observations from a re-analysis of the deposited data

Results flagged for a closer look

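The number of IDs with an FPKM above 0 was on opposite sides of Control in the tea groups. All 3 NDEA+FYT libraries lay above the Control mean of 19098.7 IDs, with a mean of 19508, and all 3 NDEA+CFT-1 libraries lay below it, with a mean of 18502.7. The difference between the tea groups was not tested. The placement rests on Control replicate 3, with 17989 IDs. Without it the Control mean was 19653.5, above the mean of NDEA+FYT and above its replicates 1 and 2. The Control libraries ranged from 17989 to 19990 and thus overlapped with both groups, and the relative depth was 1.14 to 1.6 in NDEA+FYT and 1.32 to 1.66 in NDEA+CFT-1, whose part in this number was not tested.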

How the results depend on the processing

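limma called 0 genes after adjustment, beside 1164 at an unadjusted p-value under 0.05, and 0 to 1 when each replicate was left out, the 1 being without Control replicate 2, the library singled out for lying near NDEA+FYT, also with median-of-ratios scaling added. The smallest adjusted p-value ranged from 0.0103 to 0.84 over the settings. At the unadjusted threshold 1908 genes differed with no filter on low values, 612 when a mean of at least 5 FPKM was asked for, 685 with quantile normalization (321 higher, 364 lower), 444 with all 12 libraries in the fit and 2392 with library weights, which gave Control replicate 3 a weight of 0.231 and Control replicate 2 one of 0.54, and from 566 to 1903 with a replicate left out. At least 2-fold apart were 325 genes with a pseudocount of 0.1, 69 at 5 FPKM or more, 263 with scaling and without Control replicate 2, and from 122 to 328 with a replicate left out. The groups did not overlap for 1349 genes at 5 FPKM or more, 1551 with median-of-ratios scaling, 1442 with quantile normalization, 4017 with scaling and without Control replicate 2, and from 3111 to 4597 with a replicate left out, where fewer libraries must be separated. The filters test more or fewer genes by construction, and the cause of the other changes was not tested. The median log2 difference was 0.0107 with median-of-ratios scaling, 0.0052 when Control replicate 2 and 0.0095 when Control replicate 3 was left out as well, −0.0138 with quantile normalization, 0.0825 with no filter, and 0.10 to 0.22 with a replicate left out.

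The 4 printed IDs kept their direction in each setting that tested them, but with a pseudocount of 0.1 the log2 difference was 4.12 for ENSRNOG00000001628 and 4.31 for ENSRNOG00000022163. Novel00808 lost its unadjusted p-value under 0.05 with no filter on low values and without Control replicate 3 (with scaling too) or any 1 of the NDEA+FYT replicates. The replicate numbers do not pair the libraries by design, and the correlations of same-numbered deviations were 0.244, 0.140 and 0.022, with NDEA+FYT replicate 3 closer to Control replicate 2. With the replicate number as a block, 1236 genes differed at the unadjusted threshold and 0 were called (smallest adjusted p-value 0.137). The gene list alternatives were not run, since the IDs could not be paired with symbols from the sources used here. Without read counts, the precision at low FPKM is unknown, and 3 libraries per group limit each mean.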
